A study of Mus musculus with 16 samples.

Results

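The genes described here are 10 transcripts of the NRF2 and glutathione redox system, Gpx2, Nqo1, Gclc, Gclm, Hmox1, Txnrd1, Srxn1, Slc7a11, Gstm1 and Gsta4, measured by RNA sequencing in mouse stomach. They were taken by symbol from a table of 24964 genes, and all 10 were among the 15385 genes that passed the filter on low counts. Gpx2 was picked because it rose after adrenalectomy in these same libraries, so its values are given as a description with no test. The other 9 were tested together with all other genes by edgeR's quasi-likelihood test, and a gene is called where its p, adjusted over all genes tested, was under 0.05.

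RNA was taken from a biopsy, 4 mm across, of the corpus at its lesser curvature, in female mice at 8 weeks of age. WT mice were C57BL/6, and TTPΔARE mice were congenic on C57BL/6. In TTPΔARE the transcript of tristetraprolin (TTP, gene Zfp36) is missing its AU-rich element; TTP is an RNA-binding protein that promotes decay of inflammatory transcripts. The allele is carried in the germ line, so it is not limited to any cell type of the stomach. Condition A is adrenalectomy, removal of the adrenal glands, named in the labels as the inducer of gastric inflammation. For condition S the treatment label gives SPEM (spasmolytic polypeptide-expressing metaplasia, in which injured corpus glands form mucous cells). The letter itself is not explained there and serves here as a group name. The comparisons ask how A differed from S in each genotype (WT-A against WT-S, TTP-A against TTP-S), how TTPΔARE differed from WT in each condition, and whether the A response differed between genotypes. Each group held 4 libraries. The labels do not say that each came from a separate mouse, so p-values measure the spread between these libraries.

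NRF2, the product of Nfe2l2, is a transcription factor held at low levels by KEAP1 and the ubiquitin ligase scaffold CUL3. Oxidants and electrophiles release it from KEAP1, and it then binds antioxidant response elements together with small MAF proteins, at sites where BACH1 can act as a repressor. Its known targets supply cystine (Slc7a11), make glutathione (Gclc, Gclm), reduce thioredoxin and peroxiredoxins (Txnrd1, Srxn1), reduce peroxides (Gpx2), conjugate electrophiles to glutathione (Gstm1, Gsta4), reduce quinones (Nqo1) and break down heme (Hmox1). The antioxidant response element is a DNA site and is unrelated to the AU-rich element removed in TTPΔARE.

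Libraries held 17453930 to 25849472 counts and 17607 to 18377 genes with a count. Zfp36 checked the genotype labels: it lay at 55.1 to 88.6 CPM (counts per 1000000 of the TMM-scaled library total) in the 8 WT libraries and at 110 to 131 CPM in the 8 TTPΔARE libraries, with no overlap. WT-A 3 and WT-A 4 stood apart from the other 14 libraries, because genes of high transcript GC content were high in them relative to the median library (rho across genes 0.72 and 0.74, against at most 0.30 in absolute value elsewhere). Fits of the 14 libraries without this pair are therefore given beside those of all 16, and WT-A then has 2 libraries. The labelled tissue was present in every library, with no surface mucous, chief or parietal marker at 0. The label of S was less clear: the summed level of 7 SPEM and mucous neck markers was 942 to 3217 CPM in WT-S and 888 to 1180 CPM in TTP-S, and in the A groups it was 2125 to 2717 CPM (WT) and 1348 to 4020 CPM (TTPΔARE). WT-S 1 (3217 CPM) and TTP-A 1 (4020 CPM) had the highest sums of all libraries. In bulk tissue, fewer cells of a type and less RNA per cell cannot be told apart.

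Promoter sequence was read for the members in the RefSeq table of GRCm38.p6, which matched 7 of the 10 symbols, with windows from 250 bases before to 50 bases after each annotated start. Gclc, Hmox1 and Gsta4 had no entry among these promoters, although RefSeq gives coordinates for the genes. The core of the antioxidant response element, TGACNNNGC, was searched on both strands, and TGANTCA, an AP-1-like site that reads the same on both strands, was searched beside it. The first motif was found in 3 of the 10 windows of these 7 genes, against 12.4% of all 32851 windows and 14.3% of the windows of tested genes. It lay in Gclm, in 1 of the 3 Txnrd1 windows and, after the start, in Srxn1. The TGANTCA motif was found in Srxn1 only, at 2 places (1 of 10 windows, against 7.81% of all windows), and did not overlap the first. The Srxn1 site at -45 from the start continues as TGAGTCAGC. It differs from TGACNNNGC at 1 base and so was not matched by that search. Shown are the stretches around the motifs before the start and, because Gpx2 and Nqo1 moved in opposite directions, their 250 bases before the start, which held neither motif. All are 5′ to 3′ on the gene's strand, and capitals mark the motifs.
Gclm (chr3:122245393-122245461, plus strand): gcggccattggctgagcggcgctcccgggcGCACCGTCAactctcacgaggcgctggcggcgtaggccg
Txnrd1 (chr10:82859084-82859152, plus strand): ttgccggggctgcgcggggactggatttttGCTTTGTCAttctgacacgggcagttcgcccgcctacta
Srxn1 (chr2:152105402-152105505, plus strand): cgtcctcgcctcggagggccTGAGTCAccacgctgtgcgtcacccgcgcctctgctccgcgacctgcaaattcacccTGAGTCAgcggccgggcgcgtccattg
Gpx2 (chr12:76795555-76795804, minus strand): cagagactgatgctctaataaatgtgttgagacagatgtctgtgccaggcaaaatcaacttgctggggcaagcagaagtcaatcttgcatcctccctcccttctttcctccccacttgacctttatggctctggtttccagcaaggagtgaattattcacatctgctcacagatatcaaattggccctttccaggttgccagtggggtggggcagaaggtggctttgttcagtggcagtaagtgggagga
Nqo1 (chr8:107403206-107403455, minus strand): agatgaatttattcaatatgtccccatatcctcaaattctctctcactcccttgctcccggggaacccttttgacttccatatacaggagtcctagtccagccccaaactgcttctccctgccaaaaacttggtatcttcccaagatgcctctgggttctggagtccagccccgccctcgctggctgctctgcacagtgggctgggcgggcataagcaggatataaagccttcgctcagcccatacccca
A match is a description of letters, not of a bound site, and a window without one says nothing of elements farther away.

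Gpx2, the member chosen on its rise, codes for a selenium-containing glutathione peroxidase of the gut epithelium (chromosome 12, 76792335 to 76795554, GRCm38). The WT-S libraries held 184, 87.0, 143 and 93.8 CPM, and the WT-A libraries 351, 257, 295 and 305 CPM. The TTP-S libraries held 81.9, 86.3, 86.3 and 91.3 CPM, and the TTP-A libraries 185, 113, 151 and 163 CPM. All 4 WT-A libraries lay above every other library, and the A libraries lay above the S libraries within each genotype without overlap. The log2 fold change from S to A was 1.25 in WT (14 libraries 1.26) and 0.83 in TTPΔARE. The log2 difference between TTP-A and WT-A was -0.98.

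**Figure D1:**
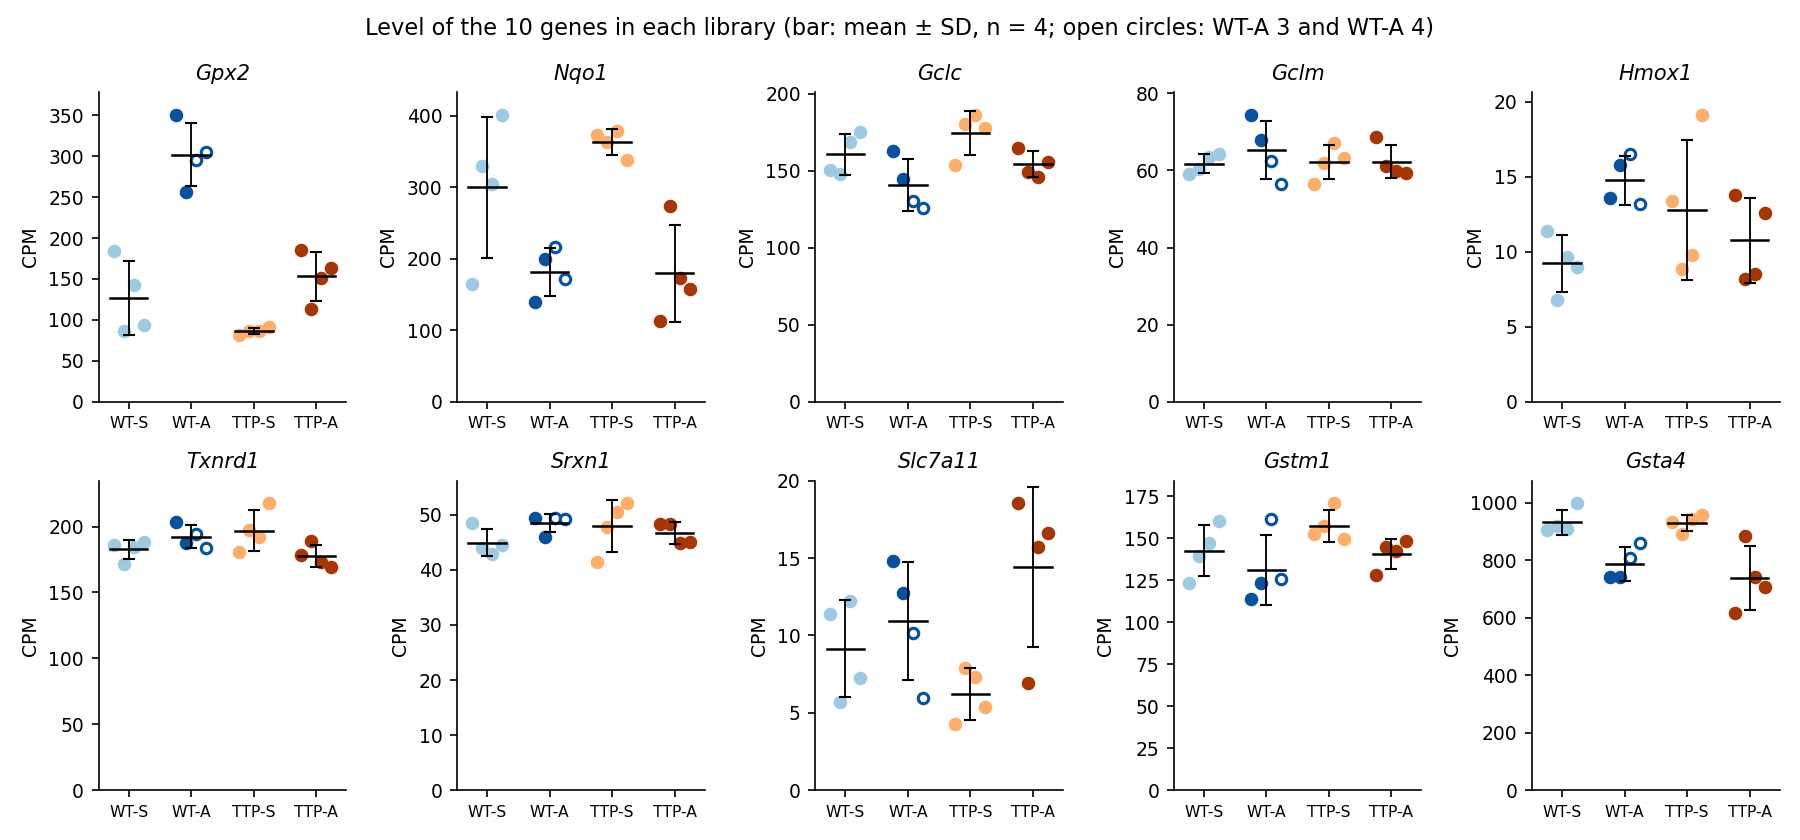
Each panel plots the level of a gene in CPM (vertical axis, from 0) in the 16 libraries, grouped on the horizontal axis, with the mean and SD of the 4 libraries of a group. Gpx2 is highest in the 4 WT-A libraries (257 to 351 CPM), Nqo1 is low in both A groups, and Gclc, Gclm, Txnrd1 and Srxn1 stay within narrow ranges.

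Nqo1 moved in the opposite direction. It codes for NAD(P)H quinone dehydrogenase, which reduces quinones and is a widely used readout of NRF2 activity (chromosome 8, 107388225 to 107403205). The TTP-S libraries held 374, 363, 378 and 338 CPM, and those of TTP-A 113, 274, 174 and 157 CPM. Every TTP-A library lay below every TTP-S library, and Nqo1 fell by 1.02 on the log2 scale (SE 0.25, edgeR adjusted p = 0.0417; 14 libraries 0.0313). The WT-S libraries were at 165, 329, 305 and 401 CPM and the WT-A libraries at 139, 199, 216 and 172 CPM. WT-S 1 lay within the WT-A range, and the log2 difference of -0.72 (SE 0.25) did not pass (adjusted p = 0.0529; 14 libraries -0.82, 0.113). Without WT-S 1 the difference was -0.93 and passed (adjusted p = 0.0105). The TTPΔARE call was kept in 1 of the 8 fits that left out a library, with the highest adjusted p (0.154) without TTP-A 1. In those fits the Nqo1 difference stayed at -1.30 to -0.85. They called 0.39% to 6.14% of all genes, against 2.90% with 16 libraries. The responses of the genotypes were not shown to differ (interaction -0.29, SE 0.35, adjusted p = 0.691).

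Slc7a11 was higher in most TTP-A libraries and lay at the edge of the threshold. It codes for the transporter that exchanges glutamate for cystine, the precursor of the cysteine in glutathione (chromosome 3, 50364936 to 50499087). Its level was 4.29, 7.91, 7.31 and 5.36 CPM in TTP-S and 18.5, 6.91, 15.7 and 16.6 CPM in TTP-A. TTP-A 1, 3 and 4 lay above every TTP-S library, while TTP-A 2 lay among the TTP-S values. The log2 difference was 1.22 (SE 0.33, interval 0.51 to 1.92), with an edgeR adjusted p of 0.0591 in 16 libraries, 0.0284 in 14 and 0.0108 without TTP-A 2. In WT it was 0.26 (SE 0.32, adjusted p = 0.580), with overlapping levels of 11.4, 5.73, 12.2 and 7.27 CPM (WT-S) and 14.8, 12.7, 10.2 and 5.96 CPM (WT-A). The WT difference was 0.60 in 14 libraries (adjusted p = 0.283), and ranged from 0.08 without WT-A 1 to 0.46 without WT-A 4. The interaction was 0.96 (SE 0.46, adjusted p = 0.338).

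Gclc, Gclm, Txnrd1 and Srxn1, by contrast, differed little between groups. Gclc and Gclm code for the catalytic and modifier subunits of glutamate-cysteine ligase, the rate-limiting enzyme of glutathione synthesis (chromosome 9, 77754535 to 77794489, and chromosome 3, 122245487 to 122267215). Txnrd1 codes for cytosolic thioredoxin reductase (chromosome 10, 82833951 to 82897724) and Srxn1 for sulfiredoxin, which repairs overoxidised peroxiredoxins (chromosome 2, 152105524 to 152111376). Gclc ranged from 126 to 186 CPM, Gclm from 56.5 to 74.4 CPM, Txnrd1 from 170 to 217 CPM and Srxn1 from 41.5 to 52.1 CPM over the 16 libraries. Their groups overlapped in each of the 4 pairwise comparisons. Their log2 differences lay between -0.19 and 0.11 in WT, and the widest interval bounds were -0.37 and 0.25. In TTPΔARE mice the differences lay between -0.18 and 0.0013, with bounds of -0.36 and 0.17. The lowest edgeR adjusted p of these 4 genes was 0.123 in WT (Gclc) and 0.220 in TTPΔARE (Txnrd1). Without WT-A 1, however, Gclc was called lower in WT-A (-0.27, edgeR adjusted p = 0.0212). That fit called 32.4% of all genes, against 18.8% with 16 libraries. The WT difference of Gclc was -0.06 in 14 libraries. The WT difference of Gclm was 0.08 in 16 libraries and 0.21 in 14 (adjusted p = 0.0812).

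Gsta4, the most abundant member per kilobase of transcript, was lower in the A libraries of both genotypes and passed the test in TTPΔARE. It codes for an alpha-class glutathione transferase that conjugates the lipid peroxidation product 4-hydroxynonenal (chromosome 9, 78191966 to 78209349). The WT-S level was 906, 918, 907 and 997 CPM and the WT-A level 740, 740, 808 and 858 CPM. The TTP-S libraries held 932, 891, 943 and 955 CPM, and those of TTP-A 618, 885, 741 and 705 CPM. A and S did not overlap in either genotype, although TTP-A 2 (885 CPM) came close to the lowest TTP-S library (891 CPM). Gsta4 fell by 0.34 on the log2 scale in TTPΔARE (SE 0.09, edgeR adjusted p = 0.0485, and 0.0277 in 14 libraries). The call was kept in 1 of the 8 fits that left out a library (highest adjusted p = 0.169, without TTP-A 1). In those fits the Gsta4 difference stayed at -0.44 to -0.26, and 0.39% to 6.14% of all genes were called. In WT the difference was -0.24 (SE 0.09, adjusted p = 0.0572), in 14 libraries -0.33 (adjusted p = 0.0499), and without WT-A 4 the adjusted p was 0.0431.

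Gstm1, a mu-class glutathione transferase (chromosome 3, 108012250 to 108017973), showed no call. Its mean level was 143 ± 15.3 CPM (WT-S) and 131 ± 21.0 CPM (WT-A) in WT, and 158 ± 9.48 CPM (TTP-S) and 141 ± 8.87 CPM (TTP-A) with the other allele (SD, n = 4 libraries). The log2 difference was -0.12 in WT (interval -0.33 to 0.09) and -0.16 in TTPΔARE (-0.37 to 0.05), with edgeR adjusted p of 0.384 and 0.488. In WT it was -0.26 in 14 libraries (adjusted p = 0.0723) and -0.24 without WT-A 3 (adjusted p = 0.0809). TTP-A (128 to 148 CPM) and TTP-S (149 to 171 CPM) did not overlap. Glutathione transferases belong to families with near-identical copies, so counts of Gstm1 and Gsta4 could be split between relatives.

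Hmox1 passed the test in WT, in a call that depended on single libraries and on the count filter and size factors. It codes for heme oxygenase 1, which releases iron and biliverdin from heme and is strongly induced in macrophages (chromosome 8, 75093618 to 75100593). The WT-S level was 11.4, 6.79, 9.68 and 9.01 CPM and the WT-A level 13.6, 15.8, 16.5 and 13.2 CPM, with no overlap. It rose by a log2 of 0.68 (SE 0.23, edgeR adjusted p = 0.0480). In 14 libraries the difference was again 0.68 but was not called (adjusted p = 0.131), and the call was kept in 2 of the 8 fits that left out a library (highest adjusted p = 0.142, without WT-S 2). The call also ended with DESeq2 size factors and with no filter on low counts, at an unchanged direction and close to the threshold of 0.05. In TTPΔARE mice the values were 13.4, 8.85, 9.78 and 19.1 CPM in S and 13.8, 8.21, 8.50 and 12.6 CPM in A, and the ranges overlapped (-0.24, SE 0.23, adjusted p = 0.704). The interaction of -0.93 (SE 0.32) did not pass (adjusted p = 0.221). The summed level of 7 macrophage markers was 109 to 140 CPM in WT-S and 130 to 203 CPM in WT-A. Of the 7 markers 3 were called higher (14 libraries 1), against 9.80% of all genes (14 libraries 4.83%). The sum of 5 neutrophil markers was 1.23 to 1.79 CPM in WT-S and 2.20 to 4.45 CPM in WT-A, which did not overlap, with up to 2 markers at 0. The 1 neutrophil marker that was tested was called higher in WT-A (log2 1.17), but not in 14 libraries. With group means removed, log2 CPM of Hmox1 had a Pearson r of -0.16 with the macrophage sum and 0.02 with the neutrophil sum. Among all marker sums its highest r was 0.60 (SPEM and mucous neck cells) and its lowest -0.51 (chief cells). The part of macrophages, neutrophils or other cells in the Hmox1 result was not tested.

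**Figure D2:**
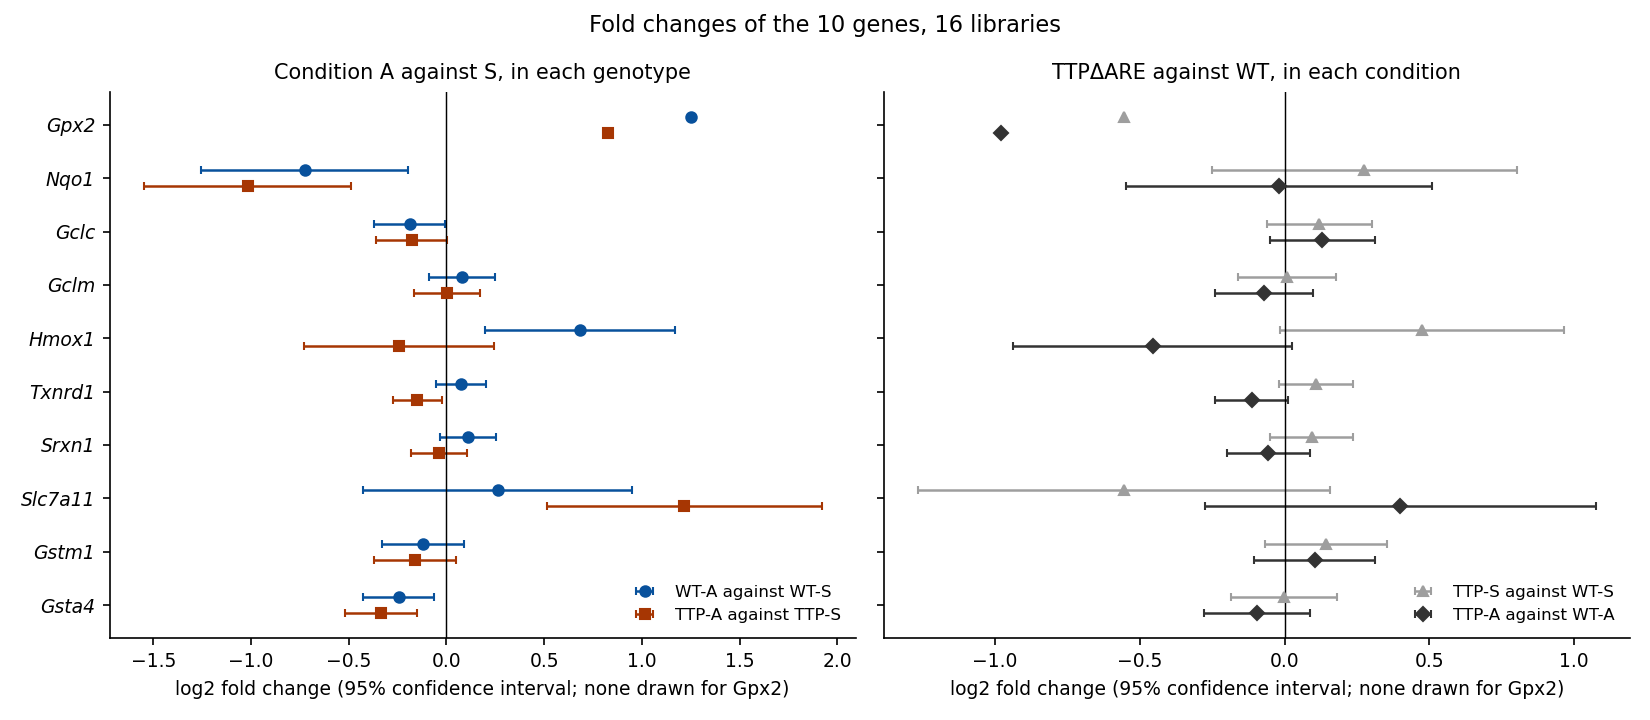
The log2 fold change of each gene (horizontal axis) is plotted with its 95% confidence interval (none for Gpx2, which was chosen on its rise), for A against S in each genotype (left) and for TTPΔARE against WT in each condition (right). Gpx2 lies to the right of 0 and Nqo1 to the left in both genotypes on the left side, and the intervals of Gclc, Gclm, Txnrd1 and Srxn1 stay close to 0.

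Of the 9 tested members, edgeR called 1 higher (Hmox1) and 0 lower between WT-A and WT-S, where 9.80% of all genes tested were called higher and 8.99% lower. In 14 libraries 0 were called higher and 1 lower (Gsta4), against 4.83% and 5.68% of all genes. Between TTP-A and TTP-S, 0 were called higher and 2 lower (Nqo1, Gsta4), against 1.55% and 1.35% of all genes, and in 14 libraries 1 higher (Slc7a11) and the same 2 lower, against 3.20% and 3.13%. In both comparisons 4 of the 9 had an unadjusted p under 0.05, as had 36.5% of all genes in WT and 15.9% in TTPΔARE. In 14 libraries 5 of the 9 had one in WT against 27.1% of all genes, and 6 of the 9 in TTPΔARE against 22.4%. The median log2 difference of the 9 was 0.07 in WT and -0.16 in TTPΔARE, and over all genes tested it was 0.0094 and -0.0010. Groups A and S did not overlap for 2 of the 9 in WT (Hmox1, Gsta4) and 3 of the 9 in TTPΔARE (Nqo1, Gstm1, Gsta4), where 17.7% and 13.7% of all genes did not overlap. Gpx2, chosen for its rise, is not counted.

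No tested member was called between genotypes. Between TTP-S and WT-S, and between TTP-A and WT-A, edgeR called 0 of the 9 tested members, and 0 had an unadjusted p under 0.05, against 7.49% of all genes in S and 27.5% in A (14 libraries 0 of 9 against 11.7%, and 2 of 9 against 19.4%). The DESeq2 Wald test and limma voom also called 0 in each. Over all genes 0.0325% were called higher and 0% lower in TTP-S (14 libraries 0.305% and 0.117%), and 2.87% higher and 2.30% lower in TTP-A (14 libraries 1.27% and 0.539%). The widest differences of tested members were -0.55 for Slc7a11 (interval -1.27 to 0.16) in S and -0.46 for Hmox1 (-0.94 to 0.03) in A. The comparisons between genotypes use the same libraries as those between conditions and are not independent of them. In the test of the difference in response, edgeR called 0 of the 9 (2 with an unadjusted p under 0.05, Hmox1 and Txnrd1; 0 by DESeq2 and by limma voom), against 0.0325% of all genes higher and 0.0260% lower (14 libraries 0.175% and 0.110%). An unadjusted p under 0.05 was found for 15.2% of all genes there (14 libraries 3 of the 9 against 13.2%).

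The members differed widely in abundance. Per kilobase of the longest protein-coding transcript, Gsta4 stood at 866 CPM per kb, averaged over the 16 libraries, followed by Nqo1 (165), Gpx2 (157) and Gstm1 (111). Txnrd1 (51.7), Gclc (46.0), Srxn1 (16.7) and Gclm (11.3) came next, and Hmox1 (7.58) and Slc7a11 (1.10) were lowest on this scale. The order of Nqo1 and Gpx2 changed with condition, as Gpx2 per kb was 119 in WT-S and 283 in WT-A and Nqo1 193 and 117. Slc7a11, the lowest, varied widely within every group, with a coefficient of variation of 27% to 35.7%, against 4.07% to 7.86% for Txnrd1. Gpx2 and Nqo1 ranged from 4.42% and 4.98% in TTP-S to 35.9% in WT-S for Gpx2 and 37.8% in TTP-A for Nqo1.

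Within groups, some members moved together and others in opposition. With group means removed, log2 CPM of Gclc and Gclm, the ligase subunits, had a Pearson r of 0.91 over the 16 libraries (Spearman rho 0.89; r = 0.86 without TTP-S 1 and WT-A 1; 0.88 in 14 libraries). Without removing group means, r was 0.44 for this pair (0.34 in 14 libraries). Gpx2 and Nqo1 had an r of -0.88 (rho -0.85; -0.87 without WT-S 1 and WT-S 2). Libraries of a group with more Gpx2 therefore held less Nqo1, in the same direction as the difference between A and S. Txnrd1 and Srxn1 had an r of 0.68, which was 0.39 without TTP-S 1 and TTP-S 4 and so rests partly on these libraries. Slc7a11 and Gsta4 had an r of -0.77 (rho -0.82; -0.55 without TTP-A 2 and WT-A 4). These values describe 45 pairs of genes in libraries that share their group's handling and the same library total for both genes.

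**Figure D3:**
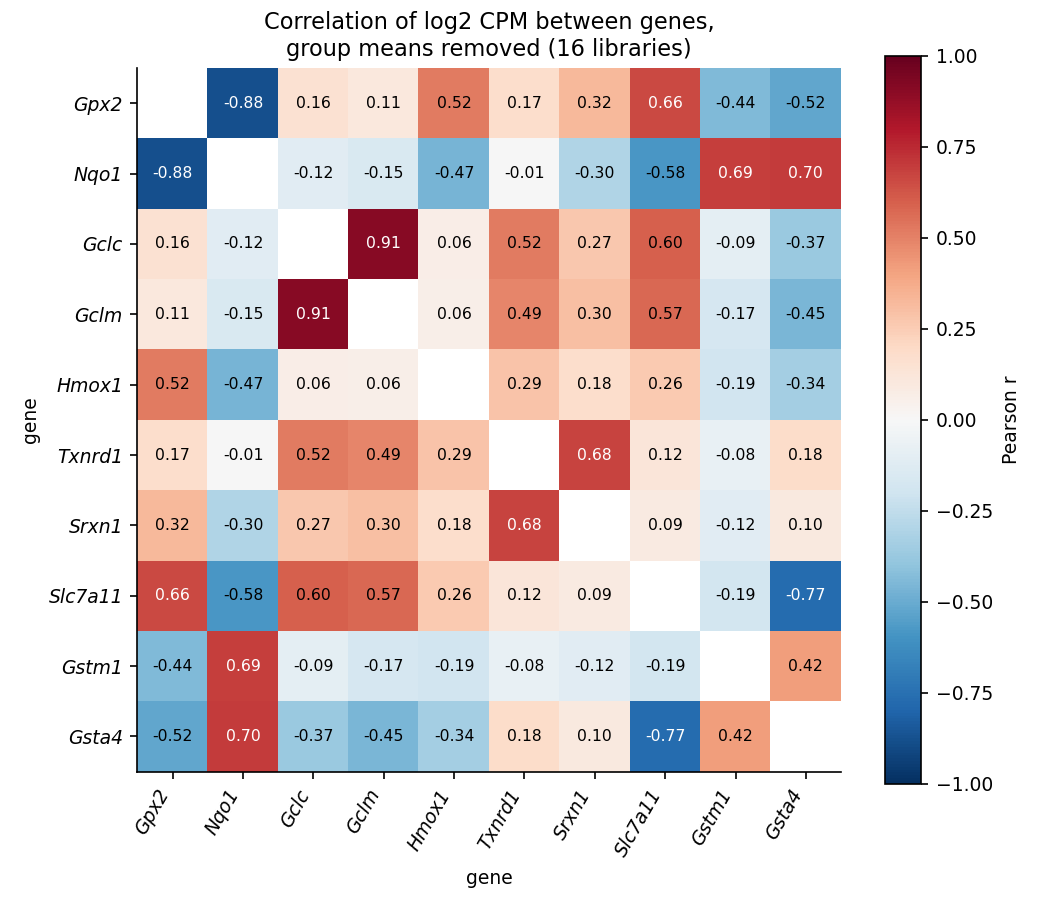
The grid gives, for each pair of the 10 genes, the Pearson r of log2 CPM over the 16 libraries with group means removed (colour scale from -1 to 1). The strongest positive value is that of Gclc with Gclm (0.91) and the strongest negative one that of Gpx2 with Nqo1 (-0.88).

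Summed epithelial markers moved with several members. The sum of 4 surface mucous markers (Muc5ac, Tff1, Gkn1, Gkn2, none at 0) was 52679 to 60554 CPM in WT-S and 36431 to 51636 CPM in WT-A. It was 55845 to 60085 CPM in TTP-S and 29828 to 52909 CPM in TTP-A, so A and S did not overlap in either genotype. Of the markers, 0 of 4 (WT) and 1 of 4 (TTPΔARE) were called lower (14 libraries 1 and 2). Of all genes, 8.99% and 1.35% were called lower (14 libraries 5.68% and 3.13%). Gsta4 followed this sum with an r of 0.96 after group means were removed (rho 0.91; r = 0.89 without TTP-A 1 and TTP-A 2). Per 1000 CPM of these markers, the Gsta4 level was 16.7 ± 0.429 CPM (WT-S) and 18.0 ± 1.58 CPM (WT-A) in WT, and 16.3 ± 0.477 CPM (TTP-S) and 18.9 ± 1.80 CPM (TTP-A) in TTPΔARE (SD, n = 4 libraries). On that scale, chosen after the values were seen, Gsta4 was not lower in A than in S. Slc7a11 went against the surface mucous sum (r = -0.77, and -0.68 without TTP-A 1 and TTP-A 2). This was not particular to surface mucous markers, as Slc7a11 had an r of -0.81 with the liver sum and -0.71 with the parietal sum. Gsta4 had an r of 0.70 and 0.67 with the same sums, below its 0.96 with surface mucous markers.

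Nqo1 had an r of 0.61 with the surface mucous sum (0.20 without TTP-A 1 and TTP-A 2) and of -0.76 with the SPEM and mucous neck sum (-0.41 without TTP-A 1 and WT-S 1). Per 1000 CPM of surface mucous markers, Nqo1 was at 5.63 to 6.78 CPM in TTP-S and 3.79 to 5.17 CPM in TTP-A, which did not overlap, and at 3.08 to 6.63 CPM in WT-S and 3.33 to 5.47 CPM in WT-A, which did. Gpx2 had an r of 0.69 with the SPEM and mucous neck sum (0.39 without TTP-A 1 and WT-S 1), of which 1 of 7 markers was called higher in A in each genotype (14 libraries 2 in WT and 1 in TTPΔARE). Per 1000 CPM of those 7 markers, Gpx2 was at 57.3 to 131 CPM in WT-S and 94.5 to 165 CPM in WT-A, and at 77.0 to 92.2 CPM in TTP-S and 46.0 to 88.3 CPM in TTP-A. On that scale the A and S libraries overlapped in both genotypes, while WT-A and TTP-A did not. The sum of 5 chief cell markers was 78520 CPM in WT-S 1 against 126380 to 153370 CPM in the other WT-S libraries, and 48926 to 103610 CPM in WT-A, with 3 of 5 markers called lower (14 libraries 4). Of 6 parietal markers 4 were called lower in WT-A (14 libraries 5), and of 5 smooth muscle markers 4 were called higher (14 libraries 1). Sums of 11 squamous markers, from the neighbouring forestomach, ranged from 61.0 to 1274 CPM, with 2 called higher in WT-A (14 libraries 4). The part of cell composition in the results of Gpx2, Nqo1, Slc7a11 and Gsta4 was not tested.

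**Figure D4:**
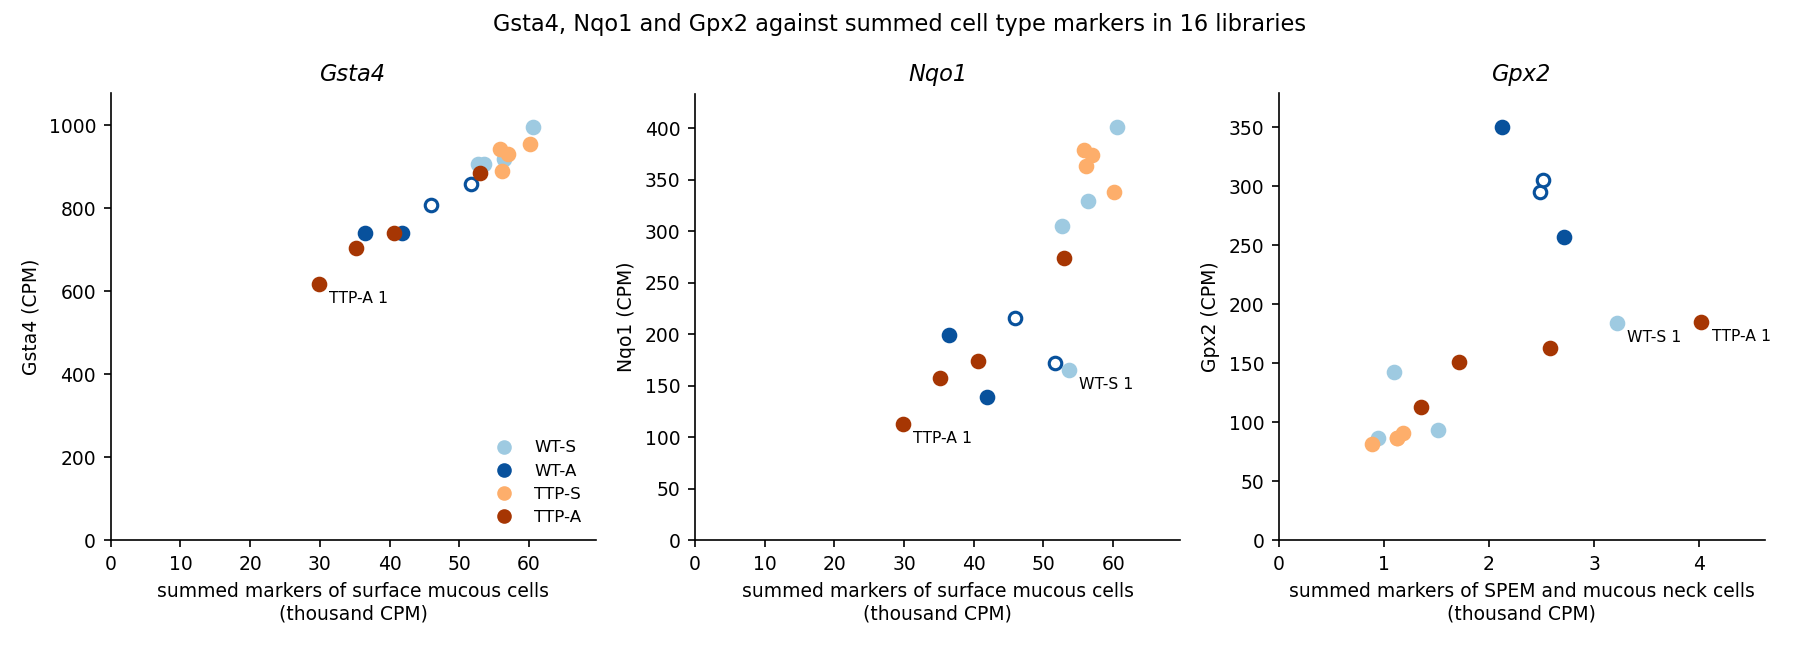
Levels of Gsta4, Nqo1 and Gpx2 (CPM, vertical axes from 0) are plotted against summed cell type markers (in units of 1000 CPM) in the 16 libraries, with open circles for WT-A 3 and WT-A 4. Gsta4 rises steadily with the surface mucous sum, from TTP-A 1 (29828 and 618 CPM) upward, while Gpx2 in the WT-A libraries lies above all others at a marker sum shared with TTP-A 4.

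Of 8 regulators of the pathway, 1 was called higher and 1 lower in WT-A (14 libraries 0 and 1), where 9.80% and 8.99% of all genes were called (14 libraries 4.83% and 5.68%). In TTPΔARE mice 0 were called higher and 1 lower, against 1.55% and 1.35% of all genes. The regulator called higher was Sqstm1, which codes for the autophagy receptor p62 that binds KEAP1 (0.20, SE 0.06, edgeR adjusted p = 0.0273; 14 libraries 0.10, adjusted p = 0.210). It is named because the count is small, after its values were seen. Nfe2l2 had group means of 646 CPM (WT-S), 557 CPM (WT-A), 573 CPM (TTP-S) and 591 CPM (TTP-A). It was not called (WT -0.21, edgeR adjusted p = 0.0967, and TTPΔARE 0.05, adjusted p = 0.893), except as lower in WT-A when WT-A 1 was left out (adjusted p = 0.0345). That fit called 32.4% of all genes, against 18.8% with 16 libraries. In 14 libraries the WT value of Nfe2l2 was -0.08 (adjusted p = 0.595). Keap1 was not called either in 16 libraries (WT 0.20, adjusted p = 0.0547; TTPΔARE 0.10, adjusted p = 0.564), although 3 of the 8 WT fits without a library called it (lowest adjusted p = 0.0232, without WT-S 1). In 14 libraries the WT value of Keap1 was 0.10 (adjusted p = 0.367). Bach1, the repressor, was the regulator called in both genotypes. It was at 47.8 to 55.5 CPM in WT-S and 32.0 to 41.6 CPM in WT-A, and at 52.7 to 58.9 CPM in TTP-S and 40.2 to 47.0 CPM in TTP-A. Bach1 fell by 0.42 in WT (SE 0.08, adjusted p = 0.00414; 14 libraries 0.0213) and by 0.35 in TTPΔARE (SE 0.08, adjusted p = 0.0297; 14 libraries 0.00495), without overlap in either genotype. The TTPΔARE call was kept in 2 of the 8 fits that left out a library (highest adjusted p = 0.0987, without TTP-A 4). Those fits called 0.39% to 6.14% of all genes.

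A list of 98 other genes of the pathway placed the members among their partners, and 96 of them were tested. Between WT-A and WT-S 9 were called higher and 17 lower (14 libraries 2 and 22), and between TTP-A and TTP-S 1 higher and 5 lower (14 libraries 1 and 13), against the shares of all genes given above. The median log2 difference of the 96 was -0.06 in WT and -0.08 in TTPΔARE. In the oxidant-producing group 4 of 7 tested genes rose in WT-A and 0 fell (all genes 9.80% and 8.99%; 14 libraries 1 and 0). They were Duoxa2 (1.37, SE 0.37, edgeR adjusted p = 0.0207), Duox2 (1.29, SE 0.38, adjusted p = 0.0295), Noxa1 (0.63, adjusted p = 0.0444) and Cyba (0.46, adjusted p = 0.0141), which code for the epithelial hydrogen peroxide generator DUOX2, its maturation factor and NADPH oxidase subunits. Duox2 was at 452, 78.4, 255 and 240 CPM (WT-S) and at 832, 520, 694 and 457 CPM (WT-A), so that WT-S 1 lay just below the lowest WT-A library. In 14 libraries only Duoxa2 of these 4 was called (adjusted p = 0.0486). Leaving out 1 library kept the call in 7 of 8 fits for Cyba (lost without WT-S 2), 6 for Duoxa2 (highest adjusted p = 0.0555, without WT-S 4), 4 for Duox2 (0.0729, without WT-A 3) and 2 for Noxa1 (0.132, without WT-S 2). In TTPΔARE mice 0 of the 7 were called (all genes 1.55% higher and 1.35% lower), and 3 had an unadjusted p under 0.05 (all genes 15.9%), with Duoxa2 at 0.98 (adjusted p = 0.178). The interaction was called for 0 of the 7, and 0 had an unadjusted p under 0.05 (all genes 15.2%). Macrophage markers (3 of 7 called higher; 14 libraries 1) and the neutrophil marker sum (1.23 to 1.79 CPM in WT-S, 2.20 to 4.45 CPM in WT-A) moved with this group in WT, and their part in it was not tested.

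Among the other roles of the list, called genes were more often lower than higher in WT-A. Of the 10 genes of glutathione supply and reduction, Gss (glutathione synthetase) rose by a log2 of 0.33 (edgeR adjusted p = 0.0192), and Chac2, Cbs and Cth fell by 0.58, 0.93 and 0.40 (adjusted p = 0.00719, 0.0331 and 0.00966). CBS and CTH make cysteine from homocysteine in the transsulfuration pathway, and CHAC2 degrades glutathione. Cbs was at 10.9 to 17.6 CPM in WT-S and at 4.04, 4.66, 6.09 and 12.8 CPM in WT-A, where WT-A 4 alone lay in the WT-S range. In 14 libraries Cbs was at -1.58 (adjusted p = 0.0018) and its interaction, 1.40, was the only 1 of the list that was called (adjusted p = 0.0457; 16 libraries 0.75, adjusted p = 0.364). Of 14 detoxification and export genes 4 fell and 0 rose (14 libraries 2 and 0), with Aldh3a1, an aldehyde dehydrogenase, at -1.03 (SE 0.23, adjusted p = 0.00936) and Ugt1a6a, a glucuronosyltransferase, at -0.60 (adjusted p = 0.0359). Of 21 glutathione transferases 3 fell and 0 rose (14 libraries 7 and 0), with Gsta2 at -0.62 (adjusted p = 0.0118). Of all genes 8.99% were called lower in this comparison, and 5.68% in 14 libraries. Extracellular superoxide dismutase Sod3 rose by 0.87 (SE 0.13, adjusted p = 0.00117), called also in 14 libraries and in all 8 fits that left out a library. Catalase fell by 0.51 (Cat, adjusted p = 0.00565). In 14 libraries Gss (adjusted p = 0.0957) and Ugt1a6a (0.113) were not called. Leaving out 1 library kept the calls of Chac2, Aldh3a1 and Gsta2 in all 8 fits, and those of Cbs and Ugt1a6a in 2 (highest adjusted p = 0.115 without WT-S 2 and 0.118 without WT-S 4).

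In TTPΔARE mice the rise called in the list was Prdx4, an endoplasmic reticulum peroxiredoxin (0.56, SE 0.12, edgeR adjusted p = 0.0253). Ugt1a6a fell by 0.86 (adjusted p = 0.0255), the microsomal transferases Mgst2 and Mgst3 by 0.43 and 0.38 (adjusted p = 0.0136 and 0.0433), and the NADPH-forming isocitrate dehydrogenase Idh1 by 0.39 (adjusted p = 0.0427). Besides Bach1, the genes Idh1, Ugt1a6a and Mgst2 were called lower in both genotypes. Except for Mgst2, which kept its call in 5 of 8, each of these calls was kept in only 1 or 2 of the 8 fits that left out a library. Those fits called 0.39% to 6.14% of all genes, against 2.90% with 16 libraries. For Prdx4, Idh1 and Mgst3 the highest adjusted p came without TTP-A 1 (0.104, 0.169 and 0.169). Between TTP-A and WT-A 4 of the 96 were called higher and 8 lower, against 2.87% and 2.30% of all genes (14 libraries 4 and 0, against 1.27% and 0.539%). Chac2 (0.49), Cat (0.41), Cth (0.37) and Akr1c13 (0.25) were higher, and Maff (-0.48), Cyba (-0.42), Gss (-0.39), Gsto1 (-0.35) and Gpx1 (-0.32) led those that were lower (adjusted p of these 9 genes 0.0232 to 0.0478). In 14 libraries Cth alone of these 9 was called (adjusted p = 0.0205). The list held 0 calls by edgeR without WT-A 3 (all genes 0.585%), and 22 without WT-A 1 (all genes 20.8%). Between TTP-S and WT-S 0 were called (9 of 96 with an unadjusted p under 0.05, against 7.49% of all genes). DESeq2 and limma voom each called 1 there (all genes 0.65% and 1.14%). For the interaction 0 were called (20 of 96 with an unadjusted p under 0.05, against 15.2% of all genes). DESeq2 and limma voom each called 2 for it (all genes 1.7% and 1.11%).

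**Figure D5:**
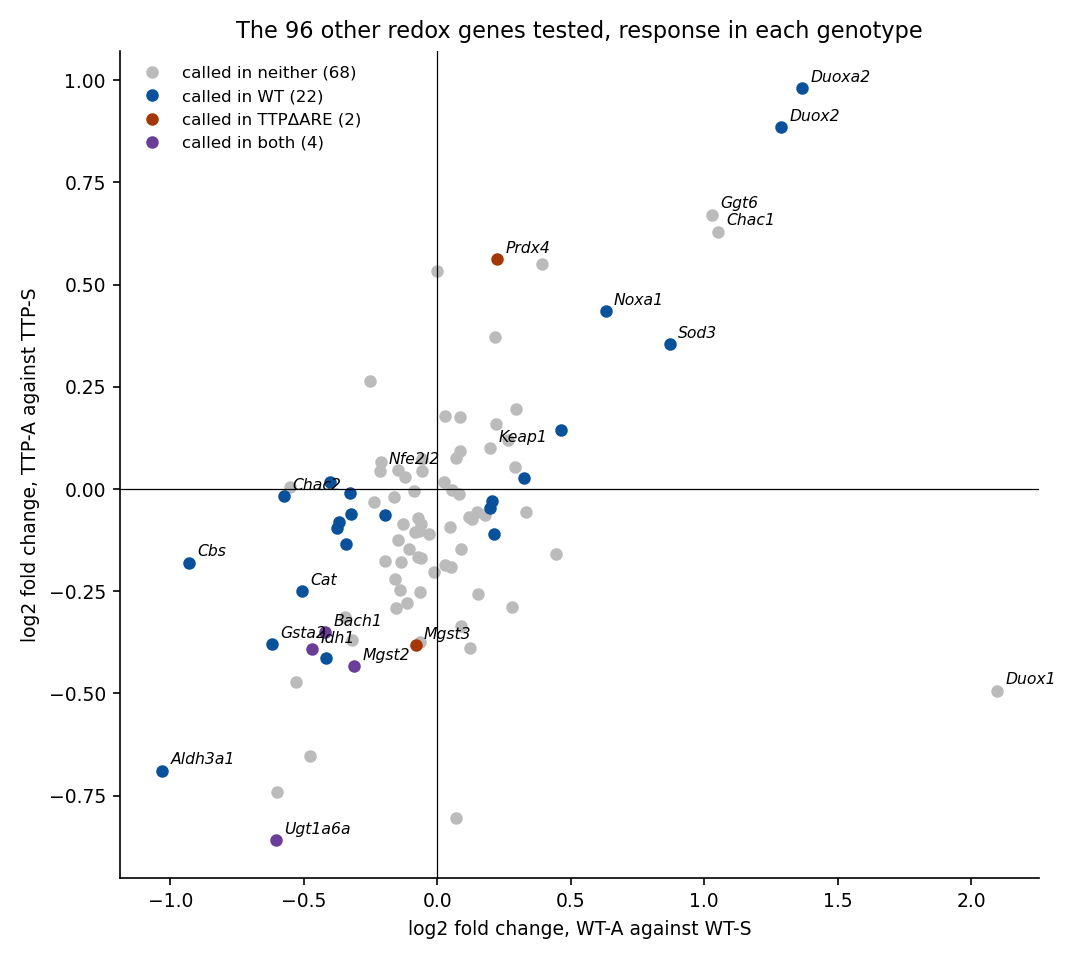
Each point is 1 of the 96 other redox genes, with its log2 fold change from S to A in WT on the horizontal axis and in TTPΔARE on the vertical axis, from comparisons that share no library. Duox2 and Duoxa2 lie at the upper right, called in WT, and the 4 genes called in both genotypes (Bach1, Idh1, Mgst2, Ugt1a6a) lie at the lower left.

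The genes whose log2 CPM followed Gpx2 most closely over the 16 libraries, among 13386 genes with a mean of at least 1 CPM, were Sh3bgrl3 (r = 0.97), Epop (0.97), Pmm1 (0.97), Epdr1 (0.96) and Ccl24 (0.96). With group means removed their r was 0.95, 0.87, 0.87, 0.89 and 0.79; the first values also carry the difference between groups for which Gpx2 was picked. The genes closest to the mean of the other 9 members were Cblb (0.80), Setbp1 (0.80), Brd1 (0.77), Irf2 (0.76) and Pkd1l3 (0.76). With group means removed their r was 0.73, 0.83, 0.72, 0.75 and 0.73.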

How the data were processed

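Stomach corpus RNA was sequenced from Illumina TruSeq libraries, per the labels' protocols. The authors deposited a single table of raw counts per gene symbol. The submitters' processing notes name STAR 2.7.0f, featureCounts, Subread 1.6.4, DESeq2 and the build mm10. The annotation, the strand setting and any filter are not given in the sources used here.

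Groups and replicate numbers came from the sample titles. The members and gene lists were chosen with earlier results of these data known. The deposited counts went into edgeR 4.0.16 (R 4.3.3) unchanged, with filterByExpr, TMM scaling and a quasi-likelihood fit of 4 group means over 16 libraries. From it came 4 pairwise contrasts and the interaction of genotype and treatment. Benjamini-Hochberg adjustment ran over all 15385 genes tested, and called means an adjusted p under 0.05. The SE was derived from the F statistic. Levels in CPM are counts relative to the TMM-scaled library total, and log2 CPM carries a prior count of 2. Totals were 17453930 to 25849472 counts per library, of which the lowest members, Slc7a11 and Hmox1, held 106 to 410 and 160 to 458. Library pairs within groups differed beyond counting noise (chi-square per degree of freedom 4.69 to 89.5 over 24 pairs), so no pair was merged.

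The genes named are the 10 members, the 5 largest called rises and falls of the redox list in each contrast, Nfe2l2, Keap1, the 5 genes most like Gpx2, the 5 most like the mean of the other members, and Zfp36. Cul3 and Sqstm1 were named after their values were seen. Gif stands in both the chief and the parietal marker list. Summed markers of the lists not described with a result were 30.9 to 76.4 CPM for adipose tissue, 15.2 to 27.3 CPM for exocrine pancreas and 1370 to 1944 CPM for liver. Alternatives used DESeq2 1.42.0 (size factors, Wald test), limma 3.58.1 voom with sample weights, other count filters, separate fits of each pair of groups, a replicate block, 14 libraries, and leaving out each library. The fits were tested on simulated data. Gene coordinates and promoters are from RefSeq on GRCm38.p6, the same build as mm10.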

Additional observations from a re-analysis of the deposited data

Results flagged for a closer look

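Of 40 groups of 4 values (10 genes in 4 groups), 2 held a library whose gap to its nearest neighbour, divided by the range of the group, was above Dixon's 95% critical value for 4 samples. Chance flags about 1 in 20 groups. Srxn1 in WT-A 2 was at 46.0 CPM, below the other 3 WT-A libraries, of which the nearest was at 49.3 CPM (gap over range 0.951). Gsta4 in WT-S 4 was at 997 CPM, above the other 3 WT-S libraries, of which the nearest was at 918 CPM (gap over range 0.860), and that library also had the highest surface mucous marker sum of its group (60554 CPM).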

How the results depend on the processing

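A stricter count filter kept all 10 counts of calls within 1.5 times the value in the report. At the depth of these libraries every member held at least 106 counts in each. The causes of the following changes were not tested. For A against S in WT, 1 of the 9 members was called in the report (all genes 18.8%). The number was 0 with DESeq2 size factors, 0 with no filter, 3 by the DESeq2 Wald test and 4 by limma voom (all genes 18.6%, 12.7%, 22.9% and 19.5%). The redox list (26) had 41 calls by limma voom and 9 with only the groups compared (all genes 19.5% and 3.98%). For A against S in TTPΔARE, the members (2) had 1 call with no filter and 4 by limma voom (all genes 1.81% and 15.2%, and 2.90% in the report). The list (6) had 18 by DESeq2, 35 by limma voom, 21 with only the groups compared and 14 in 14 libraries (all genes 5.61%, 15.2%, 7.36% and 6.33%). For TTP-S against WT-S the list (0) had 1 call by DESeq2 and 1 by limma voom (all genes 0.65% and 1.14%, and 0.0325% in the report). For TTP-A against WT-A it (12) had 0 with only the groups compared and 4 in 14 libraries (all genes 0.0065% and 1.81%, and 5.17% in the report). For the interaction it (0) had 2 by DESeq2, 2 by limma voom and 1 in 14 libraries (all genes 1.7%, 1.11% and 0.286%, and 0.0585% in the report). Leaving out each library gave 0 to 2 members and 11 to 35 list genes in WT, where 8.14% to 32.4% of all genes were called. In TTPΔARE it gave 0 to 3 members and 0 to 21 list genes (all genes 0.39% to 6.14%). For TTP-A against WT-A it gave 0 to 22 list genes (all genes 0.585% to 20.8%).

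Values near 0 changed sign, none of them called. Gclm in TTPΔARE was -0.000175 with DESeq2 size factors, -0.001791 with no filter and -0.009808 by limma voom. By limma voom Gclm was -0.006834 for TTP-S against WT-S, Nfe2l2 -0.04504 for TTP-A against WT-A, and the interactions of Gclc and Gstm1 -0.004205 and 0.09171. In 14 libraries Nqo1 was 0.08083 and Nfe2l2 -0.04462 for TTP-A against WT-A, and the interactions of Gclc and Gstm1 were -0.1183 and 0.1033. Leaving out each library, ranges that crossed 0 were -0.04877 to 0.03962 (Gclm), -0.3868 to 0.01247 (Hmox1), -0.1046 to 0.002099 (Srxn1) and -0.03337 to 0.09741 (Nfe2l2) in TTPΔARE, -0.02899 to 0.05393 (Gclm) and -0.01651 to 0.03192 (Gsta4) for TTP-S against WT-S, -0.2984 to 0.1496 (Nqo1) for TTP-A against WT-A, and -0.04974 to 0.08856 (Gclc) and -0.1032 to 0.07646 (Gstm1) for the interaction.

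The replicate numbers did not pair the libraries: deviations of same-numbered libraries correlated at -0.20 to 0.24 in WT, -0.32 to 0.15 in TTPΔARE, -0.29 to 0.058 between the S groups and -0.26 to 0.090 between the A groups, and at most 1 of 4 libraries correlated best with its own number. With the replicate block, 2 members were called in WT and 1 in TTPΔARE (all genes 18.5% and 2.78%). For TTP-A against WT-A 7 list genes were called (all genes 4.06%), and Gclm in TTPΔARE was -0.0008237.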

Other observations

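Cul3, which codes for the ubiquitin ligase scaffold that works with KEAP1, stood apart in the pair of libraries that differed in GC content. Its level was 49.97 CPM in WT-A 3 and 44.5 CPM in WT-A 4, and 116 to 132 CPM in each of the other 14 libraries. The log2 difference between WT-A and WT-S was -0.55 (SE 0.24, edgeR adjusted p = 0.116) in 16 libraries and -0.02 (SE 0.05, adjusted p = 0.818) in 14. The gene was named after its values were seen.

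Aldh3a1 codes for an aldehyde dehydrogenase. WT-S libraries held 204, 350, 365 and 354 CPM, against 113, 135, 152 and 223 CPM for WT-A. TTP-S libraries held 260, 302, 309 and 284 CPM, against 118, 249, 197 and 152 CPM for TTP-A. As for Nqo1, WT-S 1 was the lowest WT-S library and lay within the WT-A range, and TTP-A 2 was the highest TTP-A library.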
